A study of Rattus norvegicus with 8 samples.

Results

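Cholesterol genes were followed in the dentate gyrus of seizured female rats: Hmgcs1, Sqle, Fdft1, Dhcr7, Insig1, Apoe, Abca1 and Cyp46a1. Any spot outside the array's controls was taken as a member where its gene name equalled one of these symbols, which gave 12 of 43379 spots and 8 of 35250 gene names. All 8 genes were quantified, among 20825 genes in all.

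The brain makes nearly all of its cholesterol itself, because plasma lipoproteins do not cross the blood-brain barrier. Astrocytes and neurons run the mevalonate and sterol pathway under the SREBP transcription factors, which INSIG proteins hold back in the endoplasmic reticulum when sterols are plentiful. Astrocytes load cholesterol onto apolipoprotein E through ABC transporters under the control of the liver X receptors, and neurons dispose of an excess by turning it into 24S-hydroxycholesterol, which leaves the brain.

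All 8 animals were adult female Sprague-Dawley rats without ovaries in which kainic acid, an agonist of a class of glutamate receptors, had induced status epilepticus (SE). The 4 COS rats received oil and the 4 CES rats received estradiol. Per the labels, kainic acid was given intraperitoneally at 16 mg/kg, SE was ended with pentobarbital after 5 h, and estradiol was given as 4 doses of 2 microg every 24 h, 2 before and 2 after SE. The study's methods give a lower dose of kainic acid, diazepam in place of pentobarbital and all estradiol before SE. The dose, the drug that ended SE and the timing of the hormone are therefore not settled. The methods also give conflicting times of tissue collection, which leaves the time from SE to sampling unsettled. They also describe rats without SE, which were not analysed here. The comparison of CES with COS asks how the hormone changed transcript levels in rats that had all had SE, and ovariectomy, seizure and anaesthesia were shared by both groups. Because each group had seized, no effect of SE itself can be read from it.

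RNA was hybridised to 4 Agilent arrays on 1 slide, scanned together. Each array carried 2 rats of the same group, with replicates 1 and 3 in Cy3 and replicates 2 and 4 in Cy5, so group and array were nested while both dyes were present in both groups. A level below is the log2 of the background-subtracted intensity over the median of the valid spots of that rat's channel, so that 0 is the median valid spot. A gene's difference is CES minus COS on that log2 scale, its standard error comes from limma, and a call needs an adjusted p under 0.05 over all 20825 genes. Between 30690 and 38553 spots were valid per rat. All 12 member spots were valid in all 8 rats, and none was saturated or marked as an outlier. The spots of 7 of the genes were well above background in every rat, and the exception is Cyp46a1, described below.

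The scale sets what counts as lower. Over all 20825 genes the median difference was -0.25, so a gene at the median already sat below 0, and each difference is therefore also given relative to the median gene. That median became 0.04 after loess, 0.06 after quantile normalization, 0.14 with the median taken over spots valid in every rat, and 0.12 in the deposited log2 values. Of all genes, 34.3% were called in either direction, 5.74% higher and 28.6% lower in CES, and 21.2% had values that did not overlap between groups. After loess the calls ran 3252 higher and 2208 lower, against 1195 and 5957 as reported here.

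Probe sequences are shown for the 2 genes whose reading rested on a single dim probe, since all their values come from these bases. The Abca1 probe lies on the minus strand of rat build rn4 at chr5:70493613-70493672. The Cyp46a1 probe lies on the plus strand at chr6:132722421-132723276, a span of 856 bases for a probe of 60, so its bases are not contiguous in the genome. No exon annotation of rn4 was used here.
Abca1 probe: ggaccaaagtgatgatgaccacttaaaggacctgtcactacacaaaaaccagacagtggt
Cyp46a1 probe: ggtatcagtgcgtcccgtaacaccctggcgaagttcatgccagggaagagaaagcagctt

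The 250 bases upstream of the start site are shown for the 3 genes that were called and whose groups did not overlap, from RefSeq on build GRCr8. Capitals mark, on either strand, the E-box CACGTG, the CCAAT box CCAAT and the GC box GGGCGG.
Dhcr7, chr1:208444184-208444433, plus strand: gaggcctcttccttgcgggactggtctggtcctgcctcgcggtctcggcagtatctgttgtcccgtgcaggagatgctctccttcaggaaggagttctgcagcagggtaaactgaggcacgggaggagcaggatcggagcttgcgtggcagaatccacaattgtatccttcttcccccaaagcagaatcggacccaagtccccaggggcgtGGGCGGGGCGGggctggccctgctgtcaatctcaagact
Insig1, chr4:8057770-8058019, minus strand: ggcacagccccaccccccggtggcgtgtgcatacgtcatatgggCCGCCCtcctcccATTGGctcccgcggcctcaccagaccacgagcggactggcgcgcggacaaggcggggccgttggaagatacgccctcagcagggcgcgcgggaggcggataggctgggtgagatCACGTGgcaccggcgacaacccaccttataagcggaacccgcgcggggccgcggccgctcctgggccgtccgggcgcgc
Cyp46a1, chr6:133011740-133011989, plus strand: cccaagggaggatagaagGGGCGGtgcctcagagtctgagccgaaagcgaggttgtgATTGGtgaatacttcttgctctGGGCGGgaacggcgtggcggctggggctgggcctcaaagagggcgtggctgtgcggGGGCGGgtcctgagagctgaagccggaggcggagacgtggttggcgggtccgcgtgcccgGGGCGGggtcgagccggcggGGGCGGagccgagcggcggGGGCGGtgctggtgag

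The motifs were searched in windows of 250 bases before to 50 after the start site. Of the 8 genes, 6 matched the promoter table by symbol, with 8 windows between them, and Sqle and Fdft1 did not. The sterol regulatory element TCACNCCAC, the type of site SREBP binds, was in none of the 8 windows and in 1.12% of all 33469 windows. The palindromic estrogen response element, GGTCA and TGACC spaced by 3 bases, was in none of them and in 0.0269% of all windows. An E-box began 79 bases upstream of the Insig1 start site and 149 bases upstream of that of Abca1, and 6.42% of all windows held this motif. The CCAAT box was found in 5 of the 8 windows (4 of the 6 genes), beside 37.5% of all windows. The GC box was found in 7 of the 8 windows (6 of the 6 genes), beside 33.1% of all windows. Dhcr7 held a pair of overlapping GC boxes, at 39 and 34 bases upstream, and Cyp46a1 held 6 of them.

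As reported here, Cyp46a1 was called higher in CES, and Dhcr7, Insig1 and Abca1 were called lower, while Hmgcs1, Sqle, Fdft1 and Apoe did not pass the test. The 4 of 8 genes called stand beside 34.3% of all genes, the 3 lower beside 28.6%, and the 1 higher beside 5.74%. Values of 3 of the 8 genes (Dhcr7, Insig1 and Cyp46a1) did not overlap between groups, beside 21.2% of all genes. Loess, quantile normalization, the shared set of valid spots and the deposited values each left Cyp46a1 called and none of the 3 lower calls. Without COS 3, 0 of the 8 genes were called in either direction, although 4 had an unadjusted p under 0.05, and over all genes the calls fell to 285 higher and 1142 lower.

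**Figure D1:**
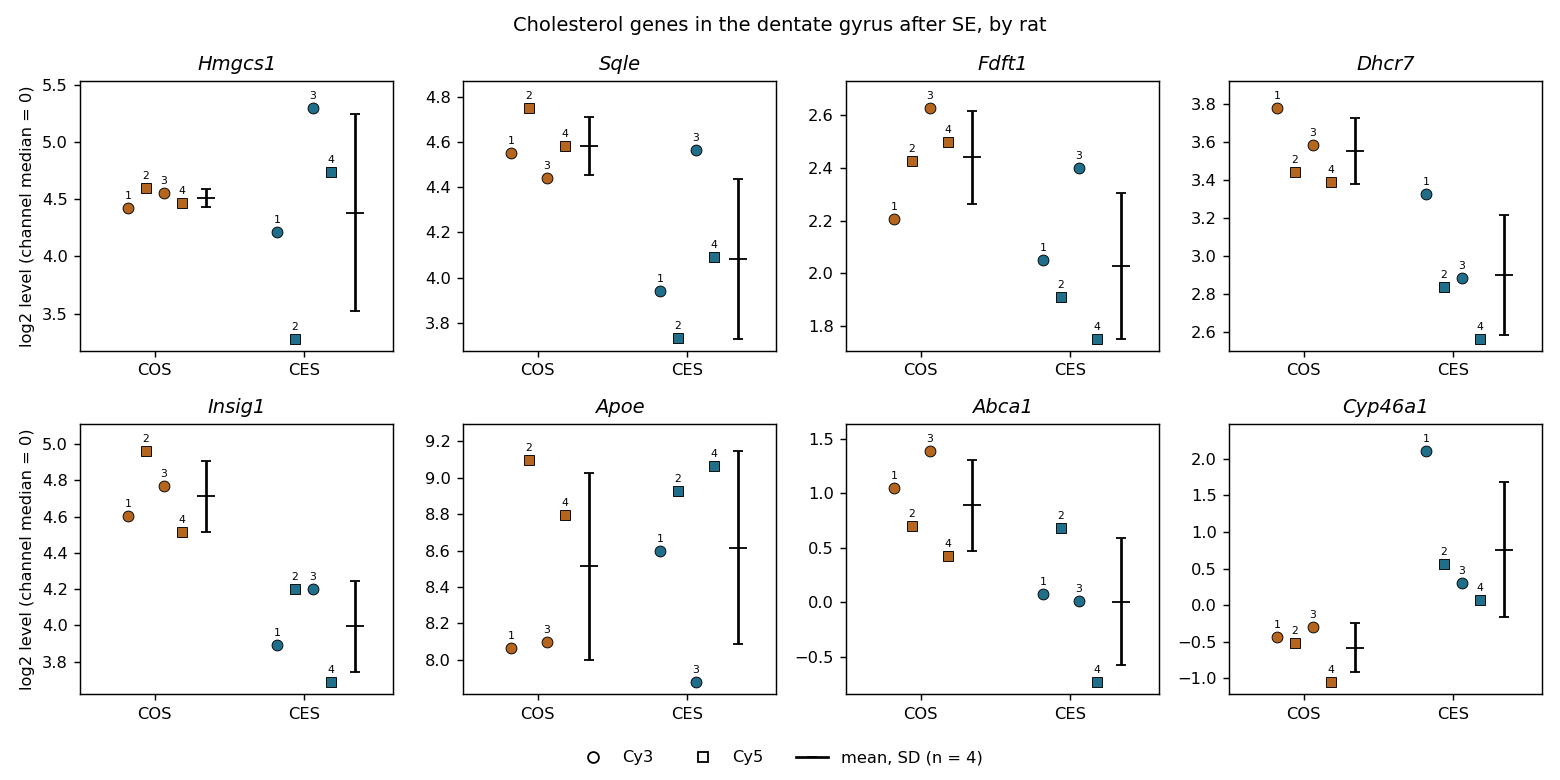
Log2 level of each of the 8 genes (vertical axis, the median valid spot of the channel is 0) in the 4 COS and the 4 CES rats, numbered by replicate, with circles for Cy3 and squares for Cy5, and the mean with its SD beside each group. Dhcr7, Insig1 and Cyp46a1 separate the groups, Hmgcs1 lies in a narrow range in COS (4.42 to 4.59) and a wide one in CES (3.28 to 5.30), and Apoe separates by dye rather than by group.

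Among the enzymes of synthesis, Hmgcs1 catalyses an early step, the making of HMG-CoA in the cytosol. Its log2 levels were 4.42, 4.59, 4.56 and 4.47 in COS 1 to 4, and 4.21, 3.28, 5.30 and 4.74 in CES 1 to 4. The COS rats lay within the range of the CES rats, with CES 2 and 1 below all of them and CES 3 and 4 above. The difference was -0.13 (standard error 0.34, limma adjusted p = 0.801), and it changed sign after loess (0.15), quantile normalization (0.17), normexp (0.05), with the shared set of valid spots (0.27), in the deposited values (0.23) and without CES 2 (0.25). What stood out was the spread, with an SD of 0.08 in COS and 0.86 in CES (n = 4 each). Only 0.154% of all genes had a smaller SD in COS, 90.2% had a smaller SD in CES, and 13 of 20825 genes, Hmgcs1 included, had a ratio of the SDs as large as its 11.03. The ratio was noticed in the data and not tested.

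Both Hmgcs1 probes gave the same order of extremes in CES. The probe at chr2:51751804-51751863 of rn4 read 1.56, -0.29, 1.75 and 1.03 in CES 1 to 4, and the probe at chr2:51754420-51754478 read 5.09, 4.21, 6.24 and 5.69. On each of them CES 2 was lowest and CES 3 highest of all 8 rats. The first probe had an SD of 0.21 in COS and 0.92 in CES, and the second 0.08 and 0.865. The probes disagreed on the other CES rats. On the first, CES 1 lay above every COS rat (0.96 to 1.36) and CES 4 lay among them. On the second, CES 1 lay below every COS rat and CES 4 above. The gene's level, a mean of linear intensities, followed the second and brighter probe, as did its small SD in COS.

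Fdft1 encodes squalene synthase, the first enzyme committed to sterols. Its levels were 2.21, 2.43, 2.63 and 2.50 in COS and 2.05, 1.91, 2.40 and 1.75 in CES. The groups overlapped through CES 3, which exceeded COS 1. The difference was -0.41 (standard error 0.18, limma adjusted p = 0.106), or -0.16 relative to the median gene. Without CES 3 it was -0.50 and passed (limma adjusted p = 0.0356).

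Sqle encodes squalene epoxidase, a rate-limiting oxygenase of the later pathway. Its levels were 4.55, 4.75, 4.44 and 4.58 in COS and 3.94, 3.73, 4.57 and 4.09 in CES. CES 3 again lay among the COS rats, and the other 3 CES rats lay below every COS rat. The difference was -0.50 (standard error 0.20, limma adjusted p = 0.0802), or -0.24 relative to the median gene. It passed without CES 3 (-0.70, limma adjusted p = 0.00895), without CES 4 (-0.60, 0.0332), with no term for dye (0.0454) and under the filter on spots well above background (0.0398).

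Dhcr7 encodes the reductase that turns 7-dehydrocholesterol into cholesterol, and its probe lies at chr1:204258565-204258624 of rn4. Its levels were 3.78, 3.44, 3.59 and 3.39 in COS and 3.33, 2.84, 2.89 and 2.56 in CES. Every CES rat was below every COS rat, CES 1 and COS 4 being the closest. The difference was -0.65 (standard error 0.17, 95% interval -1.03 to -0.27, limma adjusted p = 0.0169), a level 1.57-fold higher in COS, and -0.39 relative to the median gene. It was -0.58 between the Cy3 rats and -0.72 between the Cy5 rats. Its size fell to -0.28 after loess, -0.31 after quantile normalization, -0.25 with the shared set of valid spots and -0.29 in the deposited values, with limma adjusted p from 0.266 to 0.378. In all, the call was lost in 9 of 23 alternatives, among them those without COS 1 (limma adjusted p = 0.0636) and without COS 3 (0.0620).

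Insig1 encodes the sterol sensor that retains SREBP, and it is itself an SREBP target. Its levels, the mean over 4 probes, were 4.61, 4.96, 4.77 and 4.51 in COS and 3.89, 4.20, 4.20 and 3.69 in CES. The groups did not overlap, and COS 4 was closest to the CES rats. The difference was -0.72 (standard error 0.19, 95% interval -1.14 to -0.30, limma adjusted p = 0.0172), a level 1.64-fold higher in COS, and -0.46 relative to the median gene. It was -0.64 between the Cy3 rats and -0.79 between the Cy5 rats. It remained negative but did not pass after loess (-0.41, limma adjusted p = 0.069), quantile normalization (-0.43, 0.082), with the shared set of valid spots (-0.32, 0.157) or in the deposited values (-0.36, 0.123). The call was lost in 10 of 23 alternatives, among them those without COS 2 (limma adjusted p = 0.0527), COS 3 (0.0992) or CES 1 (0.0742).

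All 4 Insig1 probes, on the minus strand of chromosome 4 of rn4, were lower in CES. The probe at chr4:2577508-2577567 differed by -0.50, with overlap through CES 3 (5.01, against 4.96 in COS 4). The probes at chr4:2578292-2578348, chr4:2578349-2578408 and chr4:2578701-2578760 differed by -0.88, -0.80 and -0.84, each without overlap. An exact two-sided permutation test gave p = 0.0571 for the first and 0.0286 for each of the other 3, which is the smallest value that 4 rats against 4 allow. Groups without overlap always give that value, so it adds nothing to the overlap stated above. The test took no account of dye, and the 4 probes measure the same rats.

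**Figure D2:**
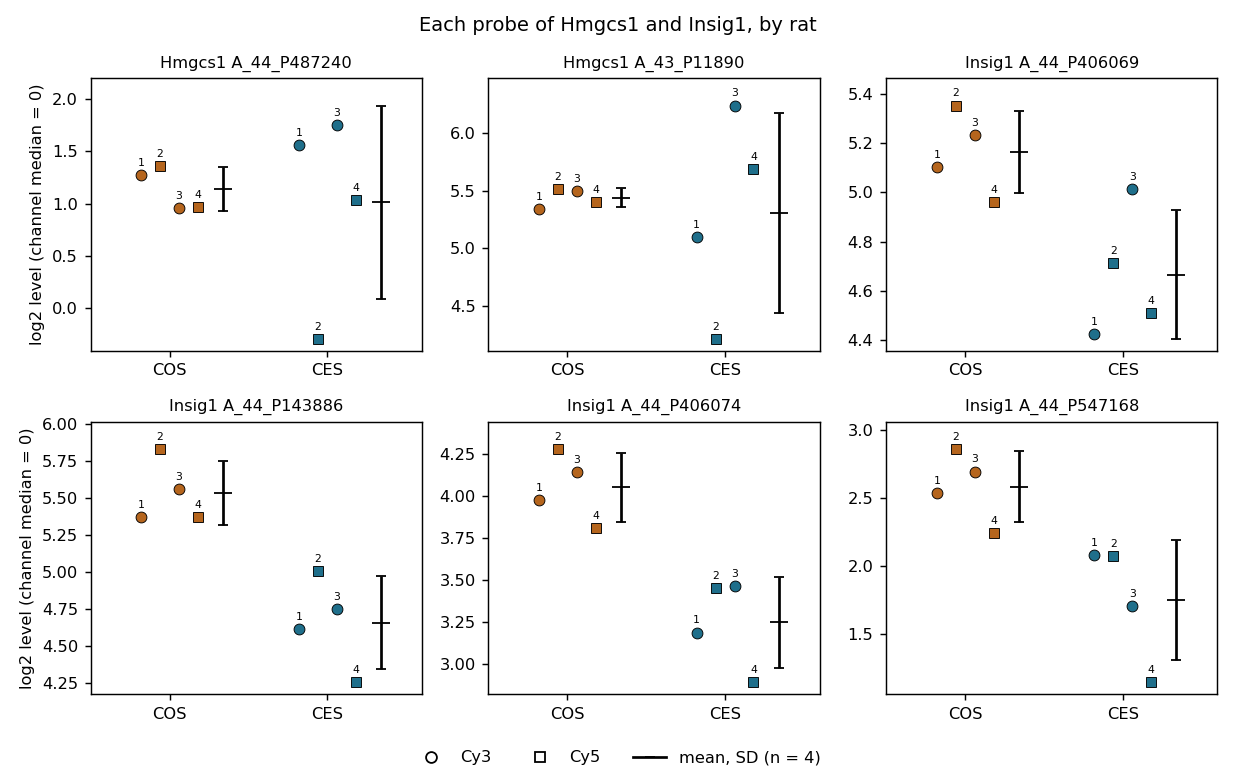
Log2 level of each probe of Hmgcs1 (2 probes) and Insig1 (4 probes) in the COS and CES rats, with the axis scaled for each probe, numbers for replicates, circles for Cy3, squares for Cy5, and the mean with its SD. Both Hmgcs1 probes place CES 2 lowest and CES 3 highest, and 3 of the 4 Insig1 probes separate the groups.

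Apoe encodes the main lipoprotein component of the brain, made mostly by astrocytes, and its probe lies at chr1:79003795-79003854 of rn4. Its levels were 8.07, 9.10, 8.10 and 8.79 in COS and 8.60, 8.93, 7.88 and 9.06 in CES. The high rats of each group were the Cy5 ones, which exceeded the Cy3 rats by 0.86 in COS and 0.76 in CES. The difference between the groups was 0.10 (standard error 0.19, 95% interval -0.32 to 0.53, limma adjusted p = 0.705), or 0.36 relative to the median gene. It was 0.15 within Cy3 and 0.05 within Cy5, and it became -0.05 without CES 1.

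Abca1 encodes the transporter that passes cholesterol to lipid-poor apolipoproteins. Its levels were 1.05, 0.70, 1.39 and 0.42 in COS and 0.07, 0.68, 0.01 and -0.74 in CES. CES 2 lay among the COS rats, and the other CES rats were below all 4 of them. The difference was -0.89 (standard error 0.29, 95% interval -1.53 to -0.24, limma adjusted p = 0.0387), a level 1.85-fold higher in COS, and -0.63 relative to the median gene. This was the least stable of the calls, lost in 14 of 23 alternatives, among them each of the scalings and the removal of any COS rat. It was also lost without CES 1 (limma adjusted p = 0.134) or CES 3 (0.0570). Without CES 2 the difference was -1.23 (limma adjusted p = 0.000398).

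Cyp46a1 encodes cholesterol 24-hydroxylase, which in the brain is found chiefly in neurons. Its levels were -0.44, -0.52, -0.30 and -1.05 in COS and 2.10, 0.56, 0.31 and 0.07 in CES. All COS rats were below 0 and all CES rats above it, with CES 1 far above the rest. The difference was 1.34 (standard error 0.34, 95% interval 0.57 to 2.11, limma adjusted p = 0.0160), a level 2.53-fold higher in CES, and 1.59 relative to the median gene. It was 1.58 between the Cy3 rats and 1.10 between the Cy5 rats. The probe was well above background in 3 of the 4 COS rats and in all 4 CES rats. The filter on spots well above background therefore left the gene out, and it was not tested there.

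Cyp46a1 stayed higher in CES in all 22 alternatives that measured it, between 0.90 and 1.75, and passed in 16. Without CES 1 the difference was 0.94 (limma adjusted p = 0.0348). The call was lost without COS 1 (0.0509), COS 3 (0.0839) or COS 4 (0.0545), after normexp (0.197) and with no filter (0.0666). It was also lost by the methods' unequal-variance test (0.187), used without the study's fold-change cut-off. All of these are p-values adjusted over all genes.

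**Figure D3:**
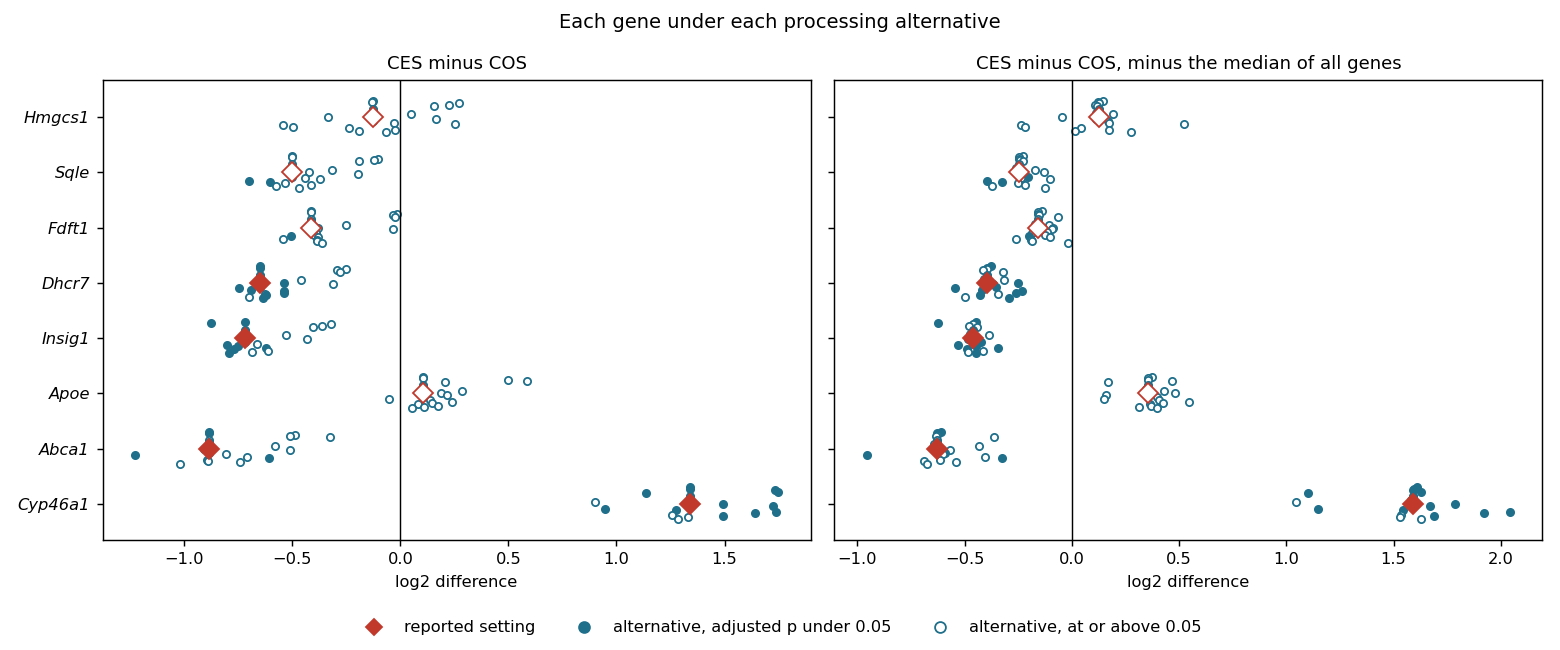
Log2 difference, CES minus COS, of each gene as reported (red diamonds) and under each processing alternative (blue circles), both filled where the adjusted p is under 0.05, on the left as fitted and on the right relative to the median gene of the same fit. On the right, Sqle, Fdft1, Dhcr7, Insig1 and Abca1 lie below 0 and Apoe and Cyp46a1 above 0 in every setting drawn, while Hmgcs1 lies on both sides.

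Among the remaining enzymes of the sterol pathway, calls ran in the direction of Dhcr7. Of 17 further enzymes, 14 were quantified, and 7 were called lower and 0 higher, beside 28.6% and 5.74% of all genes. The median difference of the 14 was -0.52, against -0.25 for all genes, and 12 of them lay below the median gene. Their summed level was 374.2 to 484.4 times the channel median in the COS rats and 232.8 to 323.6 in the CES rats. Msmo1 weighed most in these sums, as the brightest of the 14 in every rat (log2 level 7.36 to 8.05 in COS and 6.57 to 7.11 in CES). The sums therefore do not describe the list as a whole. The methods' t-test, adjusted here over all genes and used without the study's fold-change cut-off, called none of the 14. Normexp called none, the shared set of valid spots 1 and loess 3, with no call higher in any of these 4 settings.

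In 4 of the 14 enzymes the groups did not overlap, beside 21.2% of all genes. Cyp51, the lanosterol demethylase, differed by -0.92 (standard error 0.17, limma adjusted p = 0.00538), from 4.65 to 5.13 in COS and 3.71 to 3.99 in CES. Sc5d, the desaturase that makes the substrate of Dhcr7, differed by -0.90 (standard error 0.26, 0.0255), and CES 2 at 3.94 came close to the lowest COS rat at 3.99. Msmo1, the sterol C4 methyl oxidase, differed by -0.79 (standard error 0.18, 0.00932). Acat2, which joins acetyl-CoA units at the start of the pathway, differed by -0.76 (standard error 0.16, 0.00800). Named after their values were seen, Lss, lanosterol synthase, differed by -0.53 (limma adjusted p = 0.0368) and Hsd17b7 by -0.92 (0.0279), each with overlap. Without COS 3 the calls of Acat2 (limma adjusted p = 0.0544) and Msmo1 (0.0703) were lost, and that of Sc5d was lost without any 1 of the COS rats or CES 1 (0.0549 to 0.133). Nsdhl was the only further enzyme with a positive difference (0.16, limma adjusted p = 0.581).

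Of 10 genes for SREBP control and uptake, 7 were quantified, with a median difference of 0.20, and 1 was called in each direction, beside 5.74% of all genes higher and 28.6% lower. Both are named after their values were seen. Srebf2, the SREBP that drives sterol synthesis, differed by 0.46 (standard error 0.16, limma adjusted p = 0.0480), with wide overlap (-1.74 to -0.67 in COS and -1.39 to -0.13 in CES). Stard4, a cytosolic sterol carrier, differed by -0.58 (standard error 0.20, 0.0426), also with overlap. The Srebf2 call was lost without COS 1, COS 3, COS 4 or CES 1, with no term for dye and after normexp. It was also lost with no filter, by the methods' t-test and with only the brightest probe of each gene. Its spots were well above background in at most 3 COS rats. The Stard4 call was lost without COS 2, COS 3, COS 4, CES 1 or CES 2, among other alternatives. After loess, 4 of the 7 were called higher and none lower.

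Of 24 genes of efflux, lipoproteins, storage and oxysterols, 23 were quantified, and 2 were called higher and 7 lower, beside 5.74% and 28.6% of all genes. The median difference was -0.31, or -0.05 relative to the median gene, so as a list these genes lay near the background. Ch25h, which makes 25-hydroxycholesterol and is induced in activated macrophages, differed most, by -3.41 (standard error 0.55, limma adjusted p = 0.00373). It read 4.12, 4.12, 4.29 and 3.45 in COS and 0.08, 2.59, 0.04 and -0.35 in CES. Both liver X receptors, which drive Abca1, were lower in CES without overlap, Nr1h3 by -1.69 (standard error 0.30, 0.00448) and Nr1h2 by -1.11 (standard error 0.24, 0.00791).

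The other genes called lower without overlap were Soat1, the sterol esterifying enzyme (-1.57, standard error 0.17, limma adjusted p = 0.00250), and the lysosomal exporters Npc2 (-1.07, standard error 0.18, 0.00412) and Npc1 (-0.70, standard error 0.17, 0.0130). The Soat1 spot cleared background clearly in only 3 COS rats and 2 CES rats, and its difference shrank to -0.49 after loess (limma adjusted p = 0.0110) and to -0.70 after normexp, where the call was lost (0.291). Named after their values were seen, the 2 genes called higher were Cyp7b1, an oxysterol hydroxylase (0.88, standard error 0.23, 0.0182), and Lcat, which esterifies cholesterol in lipoproteins (0.92, standard error 0.25, 0.0203), each with overlap through CES 2. Without COS 3 the calls of Nr1h2 (limma adjusted p = 0.0598), Nr1h3 (0.0509) and Npc1 (0.0728) were lost, the last also without COS 1 (0.0582) or CES 1 (0.0591). Abcg1, the exporter paired with Abca1, differed by 0.38 (standard error 0.17, 0.114).

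**Figure D4:**
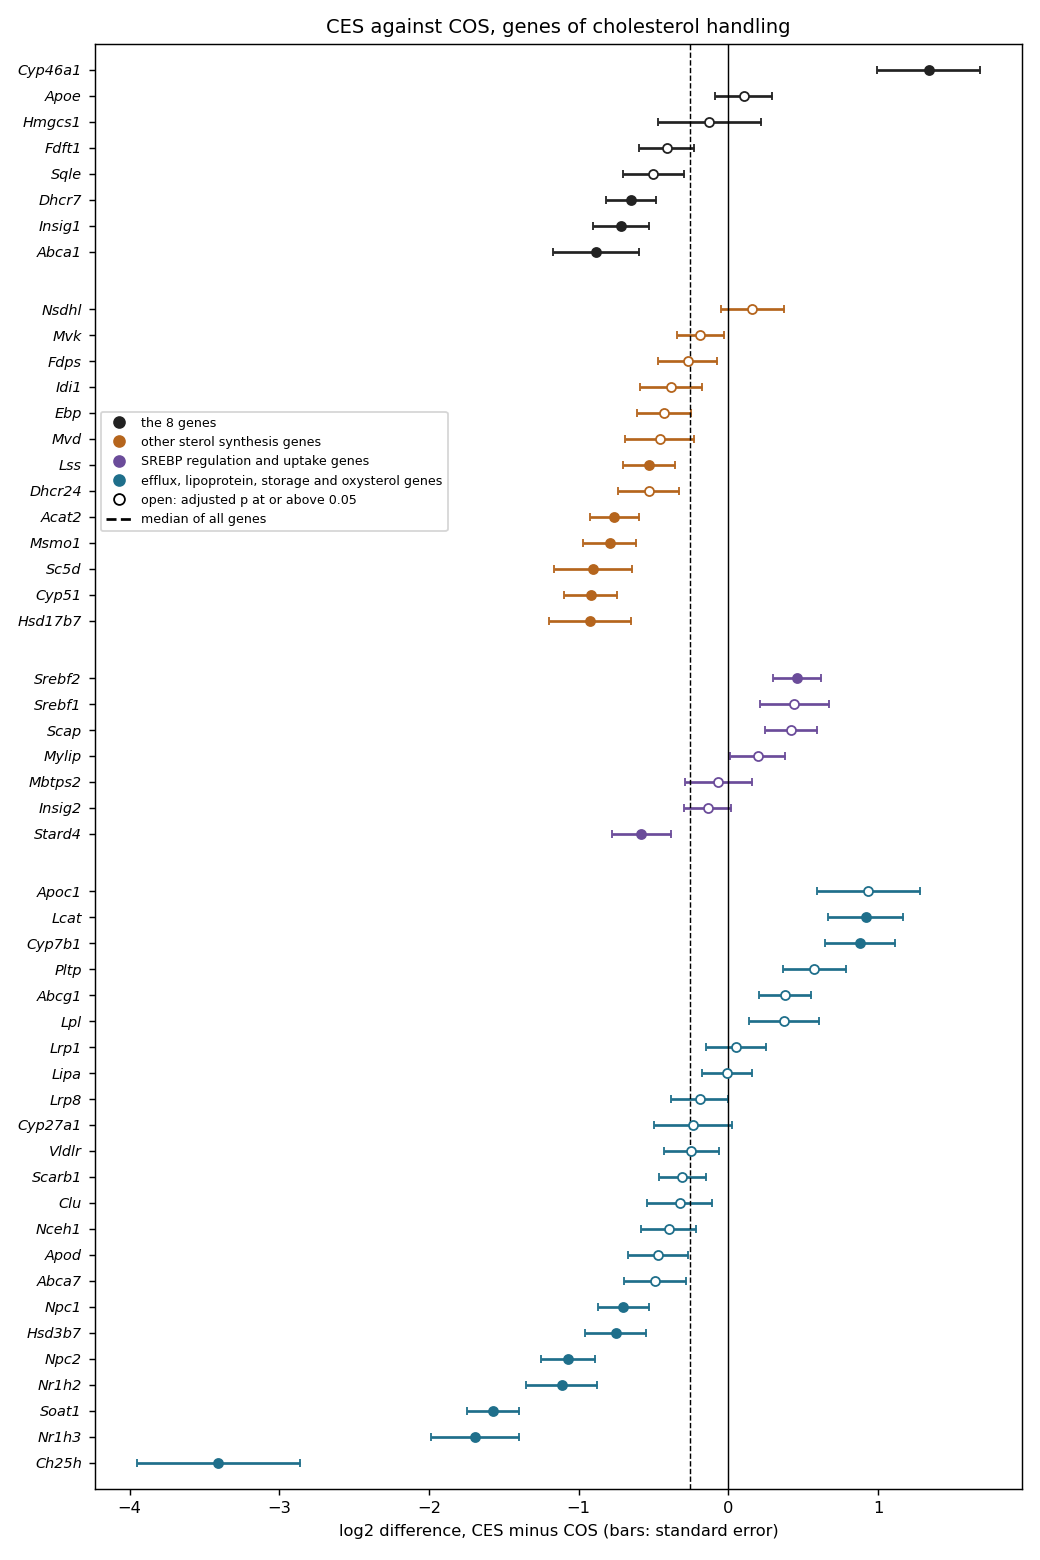
Log2 difference, CES minus COS, with its standard error, of the 8 genes and of quantified genes of the 3 further lists, filled where limma's adjusted p is under 0.05, with the solid line at 0 and the dashed line at the median of all genes (-0.25). Of the 13 further synthesis enzymes drawn, 11 lie left of the dashed line, and Ch25h at -3.41 lies farthest from it.

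Cell type markers were also called between the groups, and their counts stand beside 5.74% of all genes called higher and 28.6% called lower. Counts of signs stand beside 6542 of all 20825 genes with a positive difference. The 9 markers of microglia and macrophages summed to 91.2 to 136.4 times the channel median in COS and 26.9 to 50.9 in CES. Of the 9, 4 were called lower, among them Cd14 (-5.05) and Cd68 (-2.19), and 1 higher, P2ry12 (0.93). The other 4, Aif1, Cx3cr1, Ptprc and Tmem119, were not called. Cd14 weighed most in these sums, as the brightest of the 9 in every COS rat (log2 level 5.84 to 6.50). It read 0.65, 4.44, 0.13 and -0.68 in CES 1 to 4, with CES 2 far above the other CES rats, so the sums do not describe the list as a whole. Of the 5 endothelial markers quantified, 3 were called lower and 5 had a negative difference, with sums of 31.9 to 44.9 in COS and 14.6 to 32.5 in CES. The brightest of these 5 was Vwf (-2.01) in every COS rat and Cldn5 (-0.25, not called) in every CES rat. Of the 8 astrocyte markers, 3 were called higher and 1 lower, with sums of 233.4 to 268.7 and 219.6 to 364.6. Of the 5 neuronal markers quantified, 2 were called higher (Stmn2 by 0.79 and Syt1 by 0.58) and 4 had a positive difference, with sums of 314.5 to 403.2 in COS and 353.4 to 500.8 in CES. Snap25 (0.16, not called) weighed most in the neuronal sums, as the brightest of the 5 in every rat. The oligodendrocyte, choroid plexus, and meningeal and fibroblast lists had 0, 0 and 1 calls, and the choroid plexus sum ranged from 13.1 to 611.9, the highest in COS 2. The part of these shifts in the lower Abca1, Insig1 and Dhcr7 and the higher Cyp46a1 was not tested. In bulk tissue, fewer cells of a type and less RNA per cell cannot be told apart.

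Markers of dentate granule neurons were unevenly detected. Of 6 such markers, C1ql2 and Calb1 were well above background in every rat, and Dsp in at most 3 COS and 2 CES rats on any spot. The defining marker Prox1, which has 1 spot, Lct and Tdo2 were not well above background in any rat. Whether the probes or the tissue account for this was not tested. The 4 quantified summed to 12.6 to 22.3 in COS and 8.80 to 12.9 in CES. All 4 had a negative difference, where 6542 of all 20825 genes had a positive one. Of the 4, 3 were called lower, beside 28.6% of all genes: C1ql2 (-1.23), Dsp (-1.24) and the dim Tdo2 (-0.57).

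**Figure D5:**
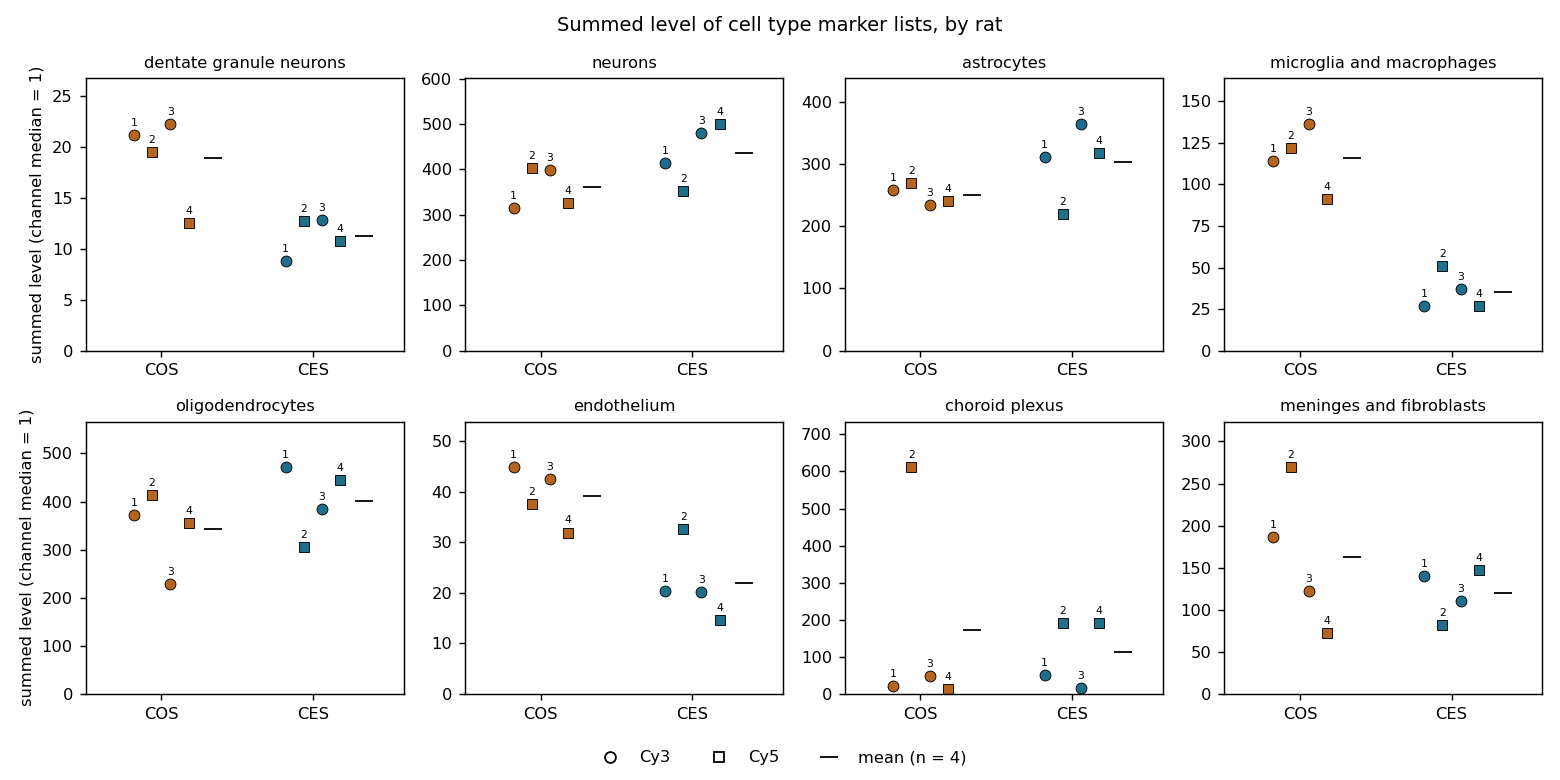
Summed linear level (the channel median is 1) of the quantified genes of each of 8 cell type marker lists in the COS and CES rats, numbered by replicate, with circles for Cy3, squares for Cy5 and a dash at the mean. The microglia and macrophage sums of the CES rats (26.9 to 50.9) all lie below those of the COS rats (91.2 to 136.4). Cd14 is the brightest gene of that list in every COS rat and weighs most in its sums. COS 2 stands apart in the choroid plexus list.

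The genes whose pattern over the 8 rats was most like that of each called gene were found by the root mean square difference of levels centred on their mean, among 11216 genes with a symbol. For Dhcr7 the nearest was another enzyme of the pathway, Lss (0.10), followed by Ubxn8 and Col5a2 (0.12 each). For Insig1 they were Ubl7 (0.08), Atg16l1 and Heca (0.09 each), and for Abca1 they were Sec16b (0.09), Fndc3a and Ncapd2 (0.11 each). For Cyp46a1 the nearest genes were farther away, among them Sfpq at 0.31 and Esyt3 at 0.37.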

How the data were processed

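Per the labels, the deposited scanner files hold Agilent Feature Extraction (10.7.3.1) intensity values of dual-dye arrays. The authors' background-subtracted, normalized log2 table was used as an alternative, with its exact scaling not given in the sources used here. A spot was valid where its mean intensity was at least 2 times the background median. As the study's methods describe, the background median was subtracted, intensities were divided by the median of valid spots of the same label, and the spots of a gene were averaged. The study's further step, a repeated renormalization across labels and conditions, was not applied here. Only spots valid in all 8 rats were kept, and spots with an outlier mark in any channel were left out. Mean intensities are written with few digits in the files, and the number of arrays limits precision.

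Levels were tested on the log2 scale with limma 3.58.1 in R 4.3.3, with dye as a fixed term and array as a random block (statmod 1.5.0, intra-array correlation -0.0104), two-sided, with Benjamini-Hochberg adjustment over 20825 genes. The study's own comparison used rats without SE, which were not analysed here. The series design calls the samples biological replicates, and p-values measure the spread between these 8 rats. On simulated data with 200 of 20825 genes changed, 85% of changes of 2 log2 units and 55% of changes of 1 were recovered, with 11 false among 151 calls. The simulated rats were drawn independently, with no array effect, no shift of scale between groups and equal numbers of changes up and down. The real data differ in this, so these rates need not hold for the calls above. Genes named in the text were the 8 genes, genes of the 3 pathway lists called without overlap, and the 3 nearest patterns of each called gene, and some items these rules select are not reported here. The genes and lists were chosen with earlier results of these data known. Alternatives covered background, signal, scaling, filters, model terms, probe choice, the methods' t-test, the log2 table and each rat left out. The methods' t-test was used with Benjamini-Hochberg adjustment over all genes. The study instead corrected for redundant spots and set a fold-change cut-off for each gene, so this alternative is not the study's full rule. Figures used Python 3.11.15 with matplotlib 3.10.9.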

Additional observations from a re-analysis of the deposited data

Results flagged for a closer look

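In 36 groups of 4 rats tested with Dixon's criterion at the 95% level, 3 held a rat far from the other 3, and chance flags about 1 in 20 groups. Ch25h was 2.59 in CES 2, above the other CES rats (gap over range 0.851). Acat2 was 5.59 in CES 3, above the other CES rats (0.860). Cyp51 was 5.13 in COS 2, above the other COS rats (0.842).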

How the results depend on the processing

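Over all genes, the calls higher and lower were 1195 and 5957 as reported, 139 and 492 after normexp, 3252 and 2208 after loess, 3023 and 2257 after quantile normalization, 3384 and 1783 with the shared set of valid spots, 394 and 2743 with no filter, 3213 and 1927 in the deposited log2 values, and 0 and 0 by the methods' t-test with Benjamini-Hochberg adjustment (5909 at an unadjusted p under 0.05, against 9425 with limma). Among the 8 genes the counts were 1 higher and 3 lower as reported. None was called higher and none lower (0 and 0) after normexp, with no filter and by the methods' t-test, 1 and 0 after loess, quantile normalization, the shared set of valid spots and in the deposited values, and 0 were called higher under the filter on spots well above background, which does not measure Cyp46a1. Beside these zeros, limma at an unadjusted p under 0.05 had 1 of the 8 genes after normexp, 4 with no filter and 2 after loess, and the t-test had 2.

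Of the 14 further synthesis enzymes, 7 were called as reported, 0 after normexp and by the t-test, 3 after loess and after quantile normalization, 1 with the shared set of valid spots and in the deposited values, and 4 with no filter. Of the SREBP and uptake genes, 2 were called as reported, 0 after normexp and by the t-test, 1 with no filter, 1 with no dye term, and 4 after loess, quantile normalization, the shared set and in the deposited values. Of the efflux and oxysterol genes, 9 were called as reported, 2 after normexp, 5 with no filter and 0 by the t-test. With outlier spots kept, an alternative chosen after seeing the data, 1238 and 6054 of 21372 genes were called.

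With each rat left out in turn, the calls over all genes ran from 285 to 1812 higher and from 1142 to 6954 lower. The lowest of both came without COS 3, and counts also moved by over 1.5 times without COS 1 (497 and 3635), COS 2 (1054 and 3959), COS 4 (522 and 5046), CES 1 (536 and 2563) and CES 2 (1812 and 6870). Among the 8 genes these runs gave 0 to 1 higher and 0 to 4 lower, with 0 and 0 without COS 3. The synthesis enzymes ran from 2 to 10 calls, the SREBP and uptake genes from 0 to 2, and the efflux and oxysterol genes from 3 to 10. The Hmgcs1 difference reversed to 0.05 after normexp, 0.15 after loess, 0.17 after quantile normalization, 0.27 with the shared set, 0.23 in the deposited values and 0.25 without CES 2, and that of Apoe to -0.053 without CES 1. With each rat left out in turn, Hmgcs1 ran from -0.542 to 0.252 and Apoe from -0.053 to 0.241. The cause of these changes was not tested, except that the shared set shifts every gene of a rat alike.

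The replicate numbers are shared by the groups but also carry the dye. Deviations from the group means correlated at 0.333, 0.214, 0.306 and 0.346 between rats of the same number, and at -0.059, -0.035, -0.059 and -0.035 once the dye was also taken out, so the numbers were not taken as pairs. With the replicate block the calls were 1050 and 6055 over all genes, 1 and 3 among the 8 genes, and 1 among the SREBP and uptake genes against 2 without it.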
